A study of Arabidopsis thaliana with 12 samples.

Results

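The interaction of genotype with t-zeatin is described here over all 12 of 12 arrays in the series and 22746 of the 22810 probe sets on each, the other 64 being control probe sets. For every probe set, the response of Col-0 to t-zeatin was subtracted from the response of ARR22-ox, so a positive difference means a higher response in ARR22-ox. The rule takes every probe set that is not a control, whatever its values, and the genes named from them were chosen as described under processing. The question is which t-zeatin responses of the wild type were lost, reversed or kept in plants that overexpress ARR22.

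The 4 groups held 3 arrays each: ARR22-ox given 20 µM t-zeatin for 3 h, ARR22-ox with no treatment, Col-0 given the same treatment, and Col-0 with no treatment. Every array carried RNA from whole Arabidopsis thaliana plants in the vegetative stage, aged 21 days. The labels record no mock treatment, no promoter or number of lines for ARR22-ox, no batch or date, and not whether arrays of a group came from separate plants. The titles of the 3 Col-0 t-zeatin arrays, and of no others, end in an added suffix that the labels do not explain. A batch that follows a group therefore cannot be told apart from that group, and p-values measure only the spread between these arrays. RR22, the array's name for ARR22, had signals of 2792, 2752 and 3132 in ARR22-ox with t-zeatin and 2857, 3248 and 3661 without, against 0.572, 0.585 and 0.397 in Col-0 with t-zeatin and 0.638, 1.92 and 0.838 without. All 6 ARR22-ox arrays carried the transcript at a high level and all 6 Col-0 arrays were near the lowest signals measured, as their labels say.

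Cytokinins such as t-zeatin bind receptor histidine kinases, which pass phosphate through histidine phosphotransfer proteins to response regulators in the nucleus. Type-B regulators are transcription factors that switch on cytokinin targets, among them the type-A regulators, which are induced within minutes and damp the pathway. ARR22 is a type-C regulator: it has the receiver domain that accepts phosphate but no output domain that could bind DNA.

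Signals are the deposited linear intensities, responses are log2 changes from no treatment to t-zeatin with the standard error of the limma fit, and a call means an adjusted p (Benjamini-Hochberg, across the 22746 probe sets) under 0.05. In RNA from complete plants, fewer cells of a type and less transcript per cell cannot be told apart. Markers of root and leaf were present throughout: PYK10, a root beta-glucosidase, lay between 1327 and 2217 and RCA, the Rubisco activase of leaves, between 2125 and 3099 on the 12 arrays. The difference of responses was called for none of the 3 measured markers of either organ, with -0.23 for PYK10, -0.03 for RCA and 0.17 for LHCB4.2, a light-harvesting protein, although LHCB4.2 was called without the array described next (adjusted p = 0.00887). ARR22-ox no treatment replicate 3 stood apart from the other 11 arrays. Its mean log2 correlation to its own group was 0.936, against 0.948 to 0.964, and the 3'/5' signal ratio of its GAPDH control was 1.82, against 0.882 to 1.09. The ratio of its actin control was 8.82, against 3.40 to 6.75. It enters every ARR22-ox response and the shared estimate of the spread, so class changes of named genes without it are given with the genes.

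The responses of the genotypes differed widely. The difference of responses was called for 6427 probe sets, 28.3% of those tested, with 2970 higher (13.1%) and 3457 lower (15.2%) in ARR22-ox. Of these, 1716 were higher and 1570 lower by at least 2-fold. The response of ARR22-ox itself was called for 7269 probe sets (32.0%), against 6076 (26.7%) in Col-0, with 15.9% rising and 16.1% falling in ARR22-ox, against 14.3% and 12.5% in Col-0. Calls of at least 2-fold numbered 1236 rises and 1026 falls in ARR22-ox, against 936 rises and 715 falls in Col-0. Without ARR22-ox no treatment replicate 3, 3986 differences were called higher and 4588 lower.

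What became of the 936 rises and 715 falls of Col-0 differed by their direction. Of the rises, 453 (48.4%) were lost, meaning that the difference was called and the ARR22-ox response was not, and 98 (10.5%) were reversed, with a called response of opposite sign and a called difference. Another 138 rises were reduced and 17 enlarged, meaning a called response of the same sign with a called difference in size. A further 109 (11.7%) were kept, with a called response of the same sign and no called difference, and 121 were not resolved, meeting none of these definitions. Of the falls, 272 (38.0%) were reversed and 216 (30.2%) were lost, while 30 were reduced, 10 enlarged, 91 (12.7%) kept and 96 not resolved. Reversal thus took a larger share of the falls and loss a larger share of the rises, and this order held under 22 of 22 alternative settings. Without ARR22-ox no treatment replicate 3, the reversed rises numbered 179 and the reduced falls 60, against 98 and 30 with it, and the enlarged falls 17 against 10.

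These probe sets were chosen on the Col-0 response. The median Col-0 responses of 1.40 for the rises and -1.32 for the falls, and the counts of called differences among them, therefore describe that choice. The size of the ARR22-ox response took no part in it, but the ARR22-ox arrays entered it through the shared estimate of the spread. On the ARR22-ox arrays the median response over the 936 Col-0 rises was 0.16. The 3 t-zeatin arrays, each set against the untreated mean, gave 0.18, 0.18 and 0.19. Over the 715 Col-0 falls the ARR22-ox median was 0.27, with 0.28, 0.27 and 0.31 on the 3 arrays, so more of these transcripts moved up than down. The sign was opposite to Col-0 for 441 of the 715 falls and 341 of the 936 rises. A call that misses the threshold does not show that a response was absent. The 95% interval of the ARR22-ox response lay within 2-fold of no change for 369 of the 453 lost rises and 158 of the 216 lost falls. The interval of the difference lay within 2-fold for 46 of the 109 kept rises and 56 of the 91 kept falls.

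**Figure D1:**
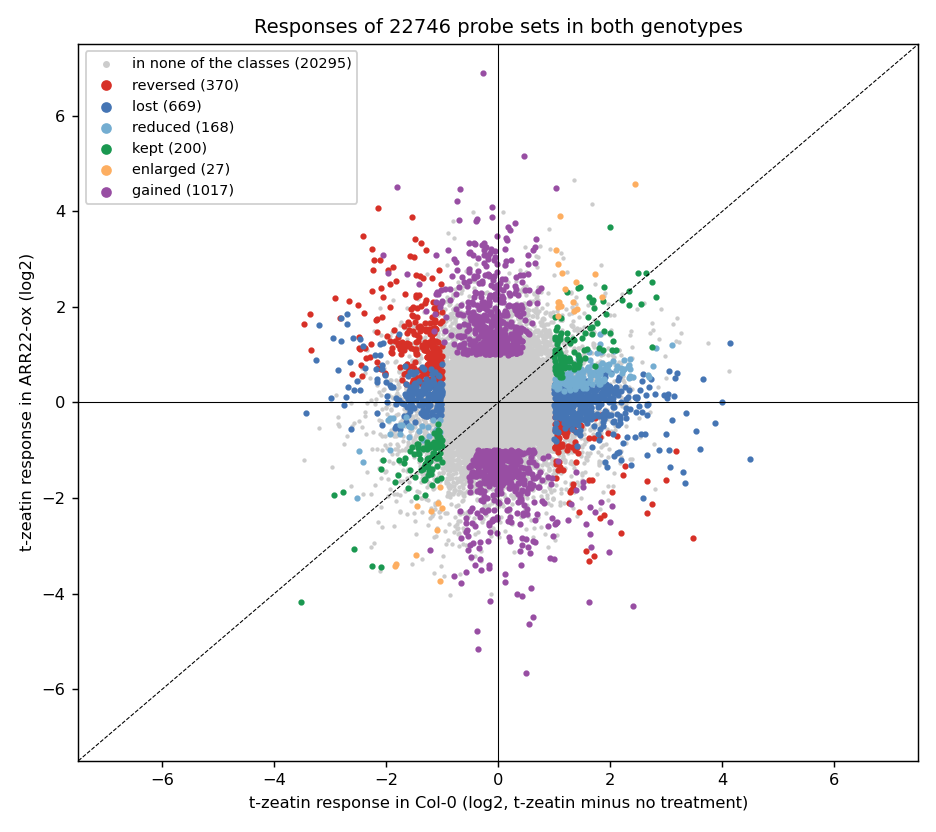
Response to t-zeatin in ARR22-ox (vertical axis, log2) against the response in Col-0 (horizontal axis, log2) for 22746 probe sets. Colours mark the classes (370 reversed, 669 lost, 168 reduced, 200 kept, 27 enlarged and 1017 gained), grey marks probe sets in none of these, and the dashed line marks equal responses. Reversed probe sets lie in the upper left and lower right, lost ones along the horizontal axis, and gained ones along the vertical axis.

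**Figure D2:**
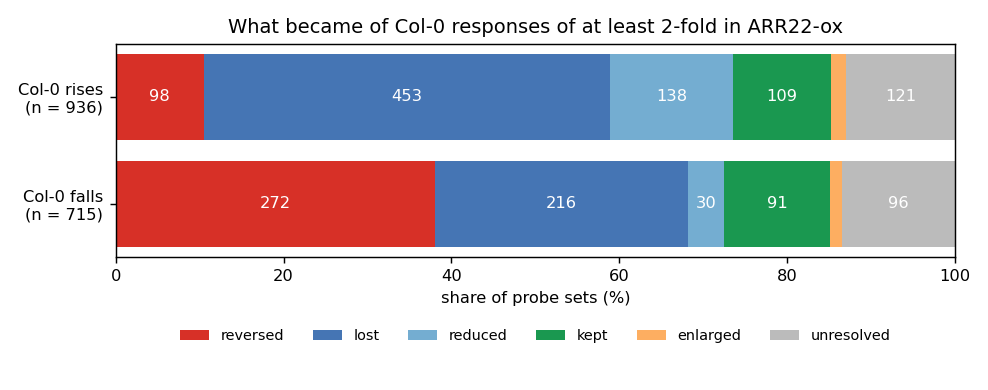
Share of Col-0 responses of at least 2-fold (%) in each class of the ARR22-ox response, for 936 Col-0 rises (upper bar) and 715 Col-0 falls (lower bar), with the number of probe sets written in the larger segments. Lost is the largest segment of the rises with 453, and reversed is the largest segment of the falls with 272.

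In the cytokinin pathway itself, the measured inductions of Col-0 were lost or reversed in ARR22-ox. RR16 (AT2G40670) encodes a type-A response regulator. Its signals were 10.1, 8.36 and 7.23 in ARR22-ox with t-zeatin and 13.8, 14.3 and 24.9 without, against 232, 236 and 264 in Col-0 with t-zeatin and 23.7, 26.6 and 31.1 without. The 3 Col-0 t-zeatin arrays lay far above all others, and the 3 ARR22-ox t-zeatin arrays lay below every untreated array. The response of RR16 was -1.01 ± 0.23 in ARR22-ox and 3.18 ± 0.23 in Col-0, and the difference was -4.18 ± 0.32 (adjusted p = 1.17e-06). ARR15 (AT1G74890), another type-A regulator, had 1.86, 8.21 and 8.46 in ARR22-ox with t-zeatin and 7.66, 12.2 and 10.5 without, against 152, 155 and 135 in Col-0 with t-zeatin and 12.1, 12.6 and 11.7 without. Its signal rose on all 3 Col-0 t-zeatin arrays, while the ARR22-ox groups overlapped. For ARR15 the response was -0.97 ± 0.46 in ARR22-ox and 3.60 ± 0.46 in Col-0, and the difference was -4.57 ± 0.65 (adjusted p = 0.000186). Adding 16 to every signal, which shrinks changes at dim signals, left a difference of -2.78 for ARR15 and -3.04 for RR16. These were the 2 measured members of the 10 listed type-A regulators, and both were lower, against 15.2% of all probe sets. Measured means here and below that the given gene table pairs a probe set with that gene alone. Other listed genes may lie among the 8730 probe sets with no gene in that table or the 503 with several. Those were not searched, so the counts do not cover the whole pathway. The gene lists used here and below were chosen with earlier results of these data known, so their counts give no independent comparison. Lists hold 1 probe set per gene. Over all 13350 genes taken that way, 11.0% of differences were higher and 14.4% lower.

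UGT76C2 (AT5G05860), which glucosylates cytokinins on a ring nitrogen and so inactivates them, followed the same pattern. It had signals of 12.1, 16 and 25.2 in ARR22-ox with t-zeatin and 9.82, 16.4 and 24.2 without, against 202, 215 and 208 in Col-0 with t-zeatin and 39.8, 44.5 and 31.9 without. The Col-0 groups were fully apart and the ARR22-ox groups overlapped array by array. The response was 0.11 ± 0.31 in ARR22-ox and 2.44 ± 0.31 in Col-0, and the difference was -2.34 ± 0.44 (adjusted p = 0.00142). Its neighbour in function, UGT76C1, showed no called difference (-0.43 ± 0.21, adjusted p = 0.166), except when ARR22-ox t-zeatin replicate 2 was left out (adjusted p = 0.0287). UGT73C1, which can O-glucosylate zeatin, was dim in ARR22-ox and near the lowest signals in Col-0, and its difference of -0.43 ± 0.81 was not called. Of 20 listed genes of cytokinin synthesis, conjugation and breakdown, 3 were measured and 1 was lower, beside 15.2% of all probe sets. Of 18 receptors, phosphotransfer proteins and type-B or type-C regulators, RR22 (0.82 ± 0.45) and RR18 (-1.50 ± 0.89), a type-B regulator, were measured and neither difference was called. None of the 12 listed cytokinin response factors and related regulators was measured by a probe set paired with that gene alone.

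Other rises in the lost class included genes of organelle and wall biology. PPR596 (AT1G80270), a mitochondrial pentatricopeptide repeat protein, had 75.5, 83.8 and 83.03 in ARR22-ox with t-zeatin and 109.8, 108 and 68 without, against 288, 243 and 310.4 in Col-0 with t-zeatin and 52.5, 46.5 and 53.1 without. The ARR22-ox groups overlapped, and every Col-0 t-zeatin array was far above every Col-0 untreated one. The PPR596 response was -0.20 ± 0.17 in ARR22-ox and 2.46 ± 0.17 in Col-0, and the difference was -2.67 ± 0.23 (adjusted p = 3.33e-06). PPR336, of the same family, responded by -0.09 ± 0.18 in ARR22-ox and 2.06 ± 0.18 in Col-0 (difference -2.15 ± 0.25, adjusted p = 3.91e-05). XTH32, a xyloglucan endotransglucosylase that remodels wall polymers, responded by -0.29 ± 0.11 in ARR22-ox and 1.65 ± 0.11 in Col-0. GH9C2, an endoglucanase, had 78.7 ± 1.98 with t-zeatin and 80.7 ± 25.98 without in ARR22-ox, against 447 ± 14.2 and 132 ± 13.7 in Col-0 (signal, SD, n = 3 each). Its response in ARR22-ox was 0.02 ± 0.19, against 1.77 ± 0.19 in Col-0. All 4 of these genes counted as lost only with ARR22-ox no treatment replicate 3, the lowest untreated ARR22-ox array for each. Without it their ARR22-ox responses were called falls and the rises were reversed, with -0.43 (adjusted p = 0.00383) for PPR596 and -0.34 (adjusted p = 0.0279) for PPR336. The same held for XTH32 at -0.40 (adjusted p = 0.00482) and GH9C2 at -0.28 (adjusted p = 0.0135).

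By size, the lost rises were led by AT3G28270, ARR15, AT4G11190, AT5G47980 and AT4G27590. AT5G47980 had 10.04, 6.36 and 6.41 in ARR22-ox with t-zeatin and 8.21, 3.76 and 4.83 without, against 284, 267 and 259 in Col-0 with t-zeatin and 21.9, 16.6 and 27.02 without. The 3 Col-0 t-zeatin arrays alone stood high, and the difference was -3.17 ± 0.42 (adjusted p = 0.000105). AT4G11190 was near the lowest signals on all 6 ARR22-ox arrays (0.662, 1.11 and 0.591 with t-zeatin, 1.09, 1.45 and 1.10 without), against 214, 224 and 212 with t-zeatin and 28.4, 26.6 and 27.2 without in Col-0, so its difference of -3.65 ± 0.43 sets a rise in Col-0 against signals near the lowest of the array in ARR22-ox. AT3G28270 ran the other way. It had 172, 199.9 and 175 in ARR22-ox with t-zeatin and 536, 599 and 386 without, against 21.98, 22.4 and 13.9 in Col-0 with t-zeatin and 0.981, 0.859 and 8.48 without. Its untreated level was thus far higher in ARR22-ox, where the response of -1.45 ± 0.64 missed the threshold (adjusted p = 0.11) although its arrays did not overlap, and the difference was -4.75 ± 0.91. The dim signals behind AT3G28270 and AT4G27590 (-2.71 ± 0.50) make their size depend on the offset, which gave -2.25 and -1.59.

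Rises that reversed were fewer. AT5G12110 had 14.8, 21.1 and 9.60 in ARR22-ox with t-zeatin and 72.3, 78.4 and 69.9 without, against 277, 287 and 269 in Col-0 with t-zeatin and 66.2, 82.3 and 78.5 without. The untreated groups had similar signals, and t-zeatin moved them in opposite directions without overlap. The response was -2.35 ± 0.21 in ARR22-ox and 1.88 ± 0.21 in Col-0, and the difference was -4.23 ± 0.30 (adjusted p = 6.55e-07). AT1G47400, a member of the list of iron deficiency genes, had 445, 459 and 440.3 in ARR22-ox with t-zeatin and 1938, 2000.0 and 2686 without, against 147, 140.5 and 129 in Col-0 with t-zeatin and 43.6, 56.4 and 55.3 without. It was thus far higher in both ARR22-ox groups than in both Col-0 groups, and fell with t-zeatin in ARR22-ox but rose in Col-0. Its difference was -3.72 ± 0.18 (adjusted p = 3.07e-08). The other measured iron genes, the transcription factors BHLH101 (-2.38 ± 1.16) and PYE (-0.77 ± 0.33), had no called difference. Thus 1 of 3 measured members of the list was called, beside 28.3% of all probe sets.

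AT3G21670 (NPF6.4, of the nitrate and peptide transporter family) had 114, 176 and 141 in ARR22-ox with t-zeatin and 363, 460.0 and 601 without, against 442, 539.5 and 429 in Col-0 with t-zeatin and 196, 177 and 185 without. Its treated ARR22-ox arrays were the lowest and the difference was -3.05 ± 0.25 (adjusted p = 2.24e-06). UGT78D1, which adds rhamnose to flavonols, reversed by -2.45 ± 0.21, with -1.34 ± 0.15 in ARR22-ox and 1.10 ± 0.15 in Col-0. LSM3A, an RNA processing factor, responded by -0.93 ± 0.15 in ARR22-ox and 1.01 ± 0.15 in Col-0. TUB1, a beta-tubulin, fell by 0.31 in ARR22-ox and rose by 1.02 ± 0.09 in Col-0, a reversal that rests on a small ARR22-ox change. With the offset UGT78D1, LSM3A and TUB1 were in no class, although their differences stayed called. AT3G57010 (-4.91 ± 0.79) and AT3G52170 (-3.60 ± 0.36) completed the 5 with the greatest size. AT3G57010 was at signals of 0.841, 0.75 and 0.889 in ARR22-ox with t-zeatin, where ratios are uncertain, and an offset of 16 gave -1.86.

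Reversed falls were the most common outcome of the Col-0 falls, and rapid stress genes and wall genes stood among them. Over the 272 reversed falls, the median signal was 155 in ARR22-ox with t-zeatin and 70.5 without, against 72.2 in Col-0 with t-zeatin and 191 without. In this class the treated ARR22-ox level lay near the untreated Col-0 level, and the untreated ARR22-ox level near the treated Col-0 level. The class was chosen for a rise in ARR22-ox and a fall in Col-0, so those directions describe that choice. STZ (AT1G27730), a zinc-finger repressor induced by salt, cold and other stresses, had 613, 612 and 626 in ARR22-ox with t-zeatin and 136, 116 and 76.5 without, against 85.5, 94.3 and 86.9 in Col-0 with t-zeatin and 316, 309 and 324 without. No 2 groups overlapped except the ARR22-ox untreated and Col-0 t-zeatin groups, which were both low. The STZ response was 2.54 ± 0.16 in ARR22-ox and -1.83 ± 0.16 in Col-0, and the difference was 4.37 ± 0.22 (adjusted p = 4.24e-08). CML38, a calmodulin-like calcium sensor, had 161, 154 and 150.5 in ARR22-ox with t-zeatin and 46.2, 50.6 and 38 without, against 37.2, 47.7 and 33.8 in Col-0 with t-zeatin and 159, 155 and 182 without. Its 2 high groups overlapped each other, as did its 2 low groups. The CML38 response was 1.80 ± 0.14 in ARR22-ox and -2.08 ± 0.14 in Col-0, and the difference was 3.87 ± 0.20 (adjusted p = 4.78e-08).

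The list of rapid stress and touch genes was chosen with earlier results of these data known, so its counts give no independent comparison. Of its 25 genes, 11 were measured, and the difference was higher for 8 and lower for 0, against 13.1% and 15.2% of all probe sets. Their median difference was 2.86, against -0.04 over all probe sets. In ARR22-ox 9 of the 11 rose and 0 fell, and in Col-0 1 rose and 6 fell. STZ, CML38, CML42 (2.86), another calmodulin-like sensor, and WRKY22 (3.24), a defence transcription factor, were reversed. WRKY6 (1.45) and the U-box ubiquitin ligase PUB22 (2.66) were gained, meaning that their ARR22-ox response was called at 2-fold or more and their Col-0 response was not called. The U-box ligases PUB23 (3.08) and PUB24 (1.43) also differed. PUB23 had 135, 156 and 149 in ARR22-ox with t-zeatin and 34.3, 30.4 and 26.6 without, against 37.5, 42.6 and 36.03 in Col-0 with t-zeatin and 63.5, 68.6 and 70.3 without. It rose on every treated ARR22-ox array and fell by less than 2-fold in Col-0. AT1G76640 (CML39) rose in both genotypes. WRKY53 (0.98, adjusted p = 0.0506) and CML37 (3.33, adjusted p = 0.137) missed the threshold, and both passed it without ARR22-ox no treatment replicate 3 (adjusted p = 0.00363 and 0.0135), where CML37 differed by 1.48. Without that array 10 were higher and the median was 2.56.

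EXO (AT4G08950), a cell expansion protein induced by brassinosteroids, had 461, 457 and 482 in ARR22-ox with t-zeatin and 98.7, 112 and 232 without, against 253, 258 and 274 in Col-0 with t-zeatin and 1804, 1953 and 1843 without. Its level in Col-0 without treatment exceeded that of every other group, and the ARR22-ox groups did not overlap. The EXO response was 1.77 ± 0.23 in ARR22-ox and -2.83 ± 0.23 in Col-0, and the difference was 4.60 ± 0.32 (adjusted p = 5.23e-07). XTH18, a xyloglucan endotransglucosylase, had 486, 517 and 627 in ARR22-ox with t-zeatin and 119, 123 and 29.9 without, against 104, 88.6 and 131 in Col-0 with t-zeatin and 430.2, 424 and 331 without. ARR22-ox no treatment replicate 3 was the lowest of the 12, and without it the XTH18 difference was 4.04, against 4.72 ± 0.58 with it (adjusted p = 5.46e-05). XTH33 reversed as well (3.51 ± 0.26), and XTH19 (2.00 ± 0.36) was gained. The wall-loosening expansins moved the other way. EXPA4 (-1.84 ± 0.31) and EXPB1 (-2.40 ± 0.58) fell in ARR22-ox, while their Col-0 responses were not called. When ARR22-ox no treatment replicate 3 was left out, the Col-0 responses of XTH19, -0.61 (adjusted p = 2.16e-06), and EXPA4, 0.45 (adjusted p = 0.000495), were called too. The wall remodelling list, too, was chosen with earlier results of these data known. Of its 22 genes 8 were measured, with 4 differences higher and 2 lower, against 13.1% and 15.2% of all probe sets. Their median was 1.09, and 2.76 for those left by the 40th percentile filter. XTH20 (0.18) and EXPA8 (-0.05) had no called difference. EXPB1 was dim, and an offset of 16 reduced its difference to -0.73.

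The greatest reversed falls without a gene name were AT5G62280 (4.90 ± 0.26), AT1G15010 (4.64 ± 0.16) and AT2G39980 (4.54 ± 0.18). AT1G15010 had 194, 199 and 205 in ARR22-ox with t-zeatin and 21.2, 23.7 and 27.4 without, against 50.3, 42.2 and 47.6 in Col-0 with t-zeatin and 140.1, 144 and 134 without. All 4 groups were apart, with the treated ARR22-ox arrays highest and the untreated ARR22-ox arrays lowest. AT5G62280 had 172, 165 and 162 in ARR22-ox with t-zeatin and 11.6, 15.1 and 21.6 without, against 69.9, 97.4 and 82.3 in Col-0 with t-zeatin and 228, 233 and 234 without. It too was lowest in untreated ARR22-ox. AT5G52050 (DTX50, an efflux carrier of the detoxification family) differed by 4.14 ± 0.54, and by 2.00 with the offset. ACA.l differed by 2.90 ± 0.19. With the offset AT5G52050 and ACA.l were in no class, although their differences stayed called. SCPL34, a serine carboxypeptidase-like gene, responded by 0.59 ± 0.10 in ARR22-ox and -2.02 ± 0.10 in Col-0.

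**Figure D3:**
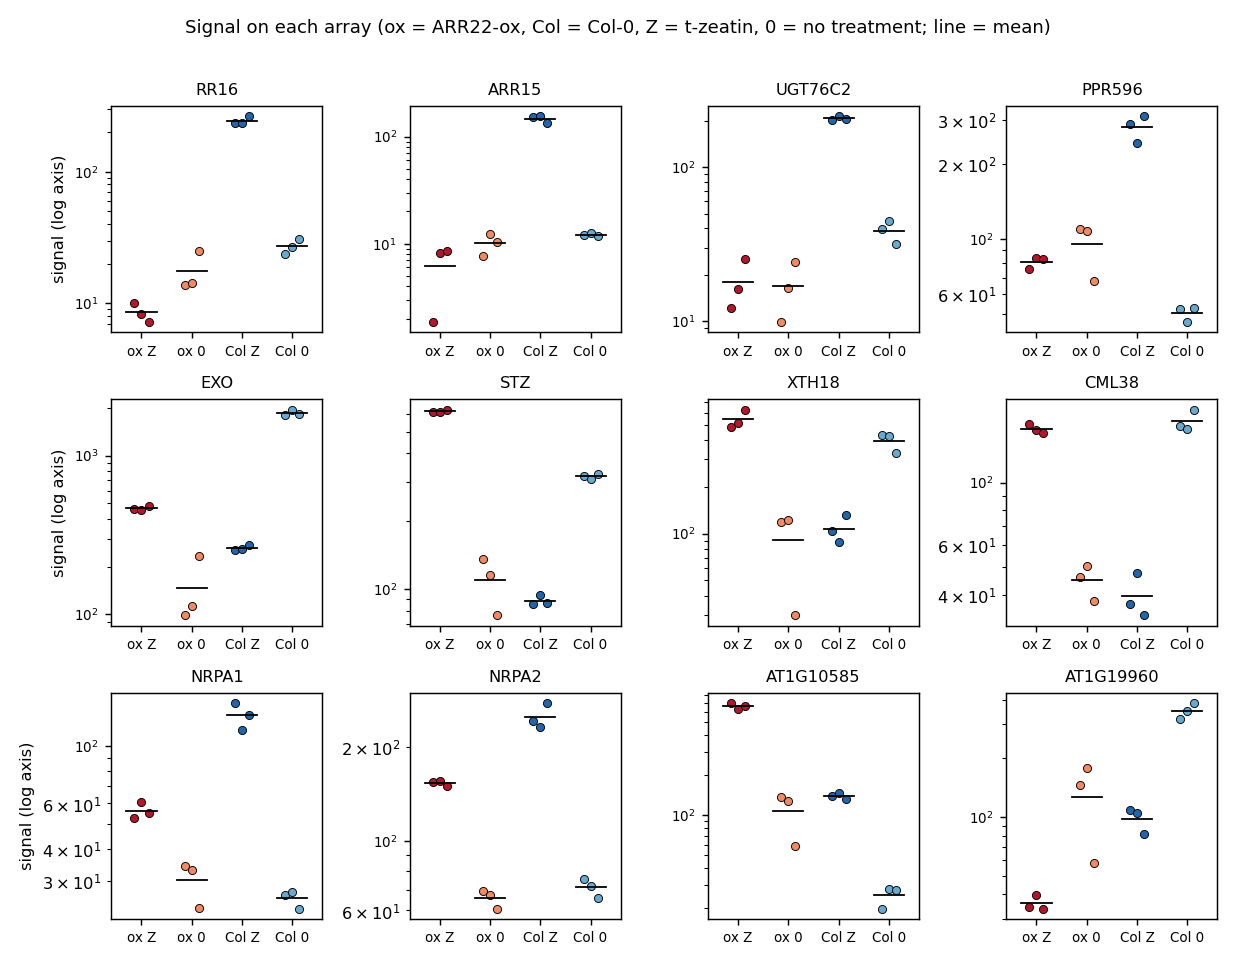
Signal on each of the 12 arrays (log axis) for 12 genes, with ARR22-ox t-zeatin, ARR22-ox no treatment, Col-0 t-zeatin and Col-0 no treatment from left to right and a line at each group's mean. RR16, ARR15, UGT76C2 and PPR596 were high only on the Col-0 t-zeatin arrays, EXO, STZ, XTH18 and CML38 rose with t-zeatin in ARR22-ox and fell in Col-0, and the lowest row shows the reduced NRPA1 and NRPA2 and the kept AT1G10585 and AT1G19960.

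Falls in the lost class had responses in ARR22-ox that were not called with all arrays. AT5G10695 had 106, 96.1 and 113 in ARR22-ox with t-zeatin and 77.6, 79.3 and 94.2 without, against 50.9, 40.9 and 35.3 in Col-0 with t-zeatin and 249.5, 264 and 301 without. The difference was 3.02 ± 0.19 (adjusted p = 2.5e-07). AT2G41640 responded by 0.27 ± 0.16 in ARR22-ox and -2.47 ± 0.16 in Col-0. AT3G19680 differed by 2.59 ± 0.28. Without ARR22-ox no treatment replicate 3 the ARR22-ox responses of AT5G10695, at 0.42 (adjusted p = 0.0207), and AT3G19680, at 0.75 (adjusted p = 9.69e-07), were called rises, so both falls were reversed. For AT1G72060, that array (215) lay far above the other untreated ARR22-ox arrays (44.2 and 43.3). Without it the ARR22-ox response of AT1G72060 was 1.34 (adjusted p = 1.56e-07), against 0.57 ± 0.45 with it, so the fall was reversed rather than lost. AT1G11210 (2.16 ± 0.74, adjusted p = 0.0449) was the weakest of the 5 named. It lost its call when any of several arrays was left out, and its difference was 1.36 without ARR22-ox no treatment replicate 3.

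Named genes among the lost falls had varied roles. ATPMEPCRB, a pectin methylesterase, responded by 0.39 ± 0.16 in ARR22-ox and -1.51 ± 0.16 in Col-0. SIS, a salt-induced serine-rich protein, responded by -0.04 ± 0.17 in ARR22-ox and -1.56 ± 0.17 in Col-0. RALFL33, a secreted peptide of the RALF family, had 345 ± 9.66 with t-zeatin and 318 ± 91.8 without in ARR22-ox, against 316 ± 8.64 and 726 ± 25.8 in Col-0 (signal, SD, n = 3 each). The untreated Col-0 level of RALFL33 was above all the others, and the difference was 1.35 ± 0.20. WES1, which conjugates auxin to amino acids, was lost too, with 0.06 ± 0.14 in ARR22-ox and -1.04 ± 0.14 in Col-0. PTI1-4, a protein kinase, differed by 1.34 ± 0.20. Among these falls 3 were reversed when ARR22-ox no treatment replicate 3 was left out, with ARR22-ox responses of 0.38 (adjusted p = 0.000142) for RALFL33, 0.38 (adjusted p = 0.00484) for PTI1-4 and 0.27 (adjusted p = 0.00898) for WES1.

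Reduced rises included genes that make ribosomes. NRPA1 and NRPA2 are the large subunits of RNA polymerase I, the enzyme that makes most ribosomal RNA. They are the 2 measured of 9 listed genes for that polymerase and nucleolar factors. Both differences were lower (median -1.02), beside 15.2% of all probe sets. NRPA1 had 52.5, 60.6 and 55.1 in ARR22-ox with t-zeatin and 34.4, 33.1 and 23.7 without, against 147, 116 and 132 in Col-0 with t-zeatin and 26.7, 27.4 and 23.6 without. It rose in both genotypes without overlap, by 0.90 ± 0.16 in ARR22-ox and 2.34 ± 0.16 in Col-0, and the difference was -1.44 ± 0.22 (adjusted p = 0.000338). NRPA2 rose by 1.23 ± 0.09 in ARR22-ox and 1.81 ± 0.09 in Col-0 (difference -0.59 ± 0.13, adjusted p = 0.00479). YAO, a nucleolar WD40 protein, rose by 0.55 ± 0.11 in ARR22-ox and 1.78 ± 0.11 in Col-0. GSTU26, a glutathione transferase, rose by 0.56 ± 0.20 in ARR22-ox and 2.35 ± 0.20 in Col-0. Hsp70-2, a chaperone, had a difference of -1.18 ± 0.13. AT4G04940 (-2.16 ± 0.26), AT3G59670 (-2.02 ± 0.20) and AT3G10530 (-1.88 ± 0.26) were reduced by the greatest size. For AT4G04940 the signals were 44.1, 46.5 and 48 in ARR22-ox with t-zeatin and 35.5, 34.5 and 26.6 without, against 120.1, 132 and 124 in Col-0 with t-zeatin and 24.2, 14.6 and 20.7 without. The ARR22-ox groups did not overlap but were close. Without ARR22-ox no treatment replicate 3 the ARR22-ox responses of AT4G04940, 0.40 (adjusted p = 0.0867), and AT3G10530, 0.38 (adjusted p = 0.0972), were not called, so both rises were lost. With the offset, the ARR22-ox response of GSTU26 was not called either (adjusted p = 0.0514).

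Among reduced falls, AT1G54740 differed by 1.59 ± 0.14 and AT3G26510 by 1.10 ± 0.22. AT5G25240 (1.47 ± 0.44, adjusted p = 0.024) lost its call when single arrays were left out, while without ARR22-ox no treatment replicate 3 its difference was 1.93. GAMMA-VPE, a vacuolar protease, fell to 577 ± 16.4 in ARR22-ox with t-zeatin, against 917 ± 8.36 without, and to 315 ± 11.5 in Col-0 with t-zeatin, against 679 ± 6.66 without (signal, SD, n = 3 each). ATG8F, which builds autophagosomes, differed by 0.53 ± 0.14. Enlarged rises were rare. AT5G48430 had 316, 337 and 327 in ARR22-ox with t-zeatin and 20.3, 23.5 and 22.3 without, against 33.97, 33.3 and 30.98 in Col-0 with t-zeatin and 13.3, 19.2 and 14.1 without. It rose in both genotypes, and the treated ARR22-ox arrays stood far above all others. Its difference was 2.79 ± 0.21. IAGLU, which glucosylates auxin, rose by 2.37 ± 0.17 in ARR22-ox and 1.19 ± 0.17 in Col-0. MSRB9, a methionine sulfoxide reductase, rose by 2.51 ± 0.07 in ARR22-ox and 1.38 ± 0.07 in Col-0. The enlarged falls were led by AT5G48490 (-1.73 ± 0.48), which differed by -1.14 without ARR22-ox no treatment replicate 3, by AT5G62210 (-1.57 ± 0.35) and by AT1G22160 (-1.56 ± 0.45), which lost its call without any of 3 single Col-0 arrays and differed by -0.70 with the offset.

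Responses kept in ARR22-ox were led by AT1G10585, with 698, 629 and 656 in ARR22-ox with t-zeatin and 136, 128 and 58.4 without, against 140.0, 145 and 131 in Col-0 with t-zeatin and 19.8, 27.9 and 27.4 without. The groups of each genotype were apart, and the level in ARR22-ox was higher both with and without t-zeatin. AT1G10585 rose by 2.71 ± 0.25 in ARR22-ox and 2.49 ± 0.25 in Col-0, and the 95% interval of the difference was -0.55 to 1.01. AT2G38240 and JRG21, both on the jasmonate list, rose in both genotypes. JRG21, an oxygenase that hydroxylates jasmonate, had 662, 663 and 652 in ARR22-ox with t-zeatin and 195, 196 and 60.3 without, against 48.97, 44.9 and 48.1 in Col-0 with t-zeatin and 27.4, 15.5 and 19.6 without. Its response was 2.32 ± 0.36 in ARR22-ox and 1.22 ± 0.36 in Col-0, and the difference was 1.10 ± 0.51 (adjusted p = 0.134), which is not a call. With the offset its Col-0 response was not called (adjusted p = 0.0756) and its difference of 1.37 was (adjusted p = 0.0316). AT2G38240 rose by 3.67 ± 0.43 in ARR22-ox and 2.00 ± 0.43 in Col-0. Its difference of 1.67 ± 0.62 was not called (adjusted p = 0.0619), but without ARR22-ox no treatment replicate 3 it was 0.93 and called (adjusted p = 0.000109), as it was with the offset (1.64, adjusted p = 0.027). UBP23, a deubiquitinating enzyme, rose by 0.93 ± 0.09 in ARR22-ox and 1.16 ± 0.09 in Col-0, with an interval of the difference of -0.52 to 0.05. AT1G76640 rose by 2.06 ± 0.50 in ARR22-ox and 2.54 ± 0.50 in Col-0 at dim signals, and with the offset its Col-0 response was not called (adjusted p = 0.0801). AT5G53770 rose by 2.20 ± 0.73 in ARR22-ox (adjusted p = 0.0362), where 1 untreated array, replicate 3, was at 1.33. Without it the response was 1.03 and the difference of -1.78 was called (adjusted p = 0.00519), so its place among the kept rises rests on that array.

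The kept falls included AT1G19960, with 34.6, 39.5 and 33.8 in ARR22-ox with t-zeatin and 146, 178 and 58.2 without, against 109, 104 and 81.3 in Col-0 with t-zeatin and 319, 349.8 and 386 without. It fell in both genotypes, and ARR22-ox no treatment replicate 3 was the lowest of the untreated arrays. The response was -1.68 ± 0.31 in ARR22-ox and -1.85 ± 0.31 in Col-0, with an interval of the difference of -0.77 to 1.11. NdhS, a subunit of the chloroplast NADH dehydrogenase-like complex, had 254, 236 and 225 in ARR22-ox with t-zeatin and 419.8, 520.1 and 569.5 without, against 190.1, 214 and 208 in Col-0 with t-zeatin and 403, 464 and 403 without. The untreated groups of the genotypes overlapped, and the responses were -1.07 ± 0.11 in ARR22-ox and -1.05 ± 0.11 in Col-0 with an interval of -0.35 to 0.32. SAG29, a sugar transporter of the SWEET family, fell by 1.98 in ARR22-ox and 1.47 in Col-0 on the log2 scale. SKP2A, an F-box protein of the cell cycle, responded by -1.09 ± 0.17 in ARR22-ox and -1.51 ± 0.17 in Col-0. AT3G25930 responded by -1.57 ± 0.19 in ARR22-ox and -1.50 ± 0.19 in Col-0. OCT1, an organic cation transporter, fell by the most of the kept genes, by 4.18 in ARR22-ox and 3.53 in Col-0, but was dim on all treated arrays, and its place among the kept falls was lost with the offset. There its response was -2.44 in ARR22-ox and -0.58 in Col-0, which was not called (adjusted p = 0.178), and the difference of -1.86 was called (adjusted p = 0.00532). For SAG29 too, the difference was called with the offset, at -0.77 (adjusted p = 0.0193).

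Many responses were called only in ARR22-ox together with a called difference. These gained responses made up 529 of the 1236 ARR22-ox rises of at least 2-fold (42.8%) and 488 of the 1026 falls (47.6%). Over the gained falls the median signal was 26.2 in ARR22-ox with t-zeatin and 69.2 without, against 40.2 in Col-0 with t-zeatin and 41.1 without. Over the gained rises it was 108 in ARR22-ox with t-zeatin and 37.4 without, against 47.9 and 50.9 in Col-0 with and without it. Gained responses were chosen for a Col-0 response that was not called, so the similar Col-0 medians describe that choice. All 1236 ARR22-ox rises and 1026 falls were chosen on the ARR22-ox response, and the Col-0 arrays entered only through the shared estimate of the spread. The median Col-0 response was -0.11 over these rises and -0.18 over these falls.

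Genes of flavonoid and anthocyanin synthesis, the pathway of red and purple plant pigments, fell in ARR22-ox. All 5 measured of 15 listed flavonoid and anthocyanin genes fell in ARR22-ox with a lower difference and counted as gained falls. Their median difference was -2.37, and 15.2% of all probe sets had a lower difference. This list was chosen with earlier results of these data known, so its count gives no independent comparison. DFR, dihydroflavonol reductase, had 78.02, 84.7 and 80.5 in ARR22-ox with t-zeatin and 1066, 1272 and 239 without, against 62.8, 55.9 and 53.4 in Col-0 with t-zeatin and 118, 139 and 144 without. It was highest in untreated ARR22-ox, where replicate 3 was far below the others. The DFR difference was -1.87 ± 0.63 (adjusted p = 0.0423), which missed the threshold when any array other than that one was left out (adjusted p = 0.0686 to 0.0951) and was -2.63 without it. UF3GT, which adds xylose to anthocyanins, had 56.4, 29.7 and 45.1 in ARR22-ox with t-zeatin and 451, 440.1 and 167 without, against 25.4, 28.4 and 32.6 in Col-0 with t-zeatin and 43.2, 32.3 and 33.6 without. The other 3 groups overlapped one another, and the difference was -2.59 ± 0.47 (adjusted p = 0.00121). The remaining members were AT4G14090 (-2.95 ± 0.44), UGT78D2 (-1.99 ± 0.28), which glucosylates flavonoids, and AT5MAT (-2.37 ± 0.43), which adds malonate to anthocyanins and was dim (-1.48 with the offset). CHIL, which aids flavonoid synthesis and was not on the list, differed by -2.17 ± 0.33. Leaving out replicate 3 of untreated ARR22-ox, all 5 differences remained lower, but the Col-0 response was called for 3, so these were no longer gained. It was -1.22 (adjusted p = 1.05e-07) for DFR, an enlarged fall, 0.52 (adjusted p = 0.000288) for UGT78D2 and 0.52 (adjusted p = 0.0464) for AT5MAT.

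Other gained falls were HIS1-3, a drought-induced linker histone, with 75.4, 74.2 and 82.7 in ARR22-ox with t-zeatin and 529, 544 and 996 without, against 61.97, 51.2 and 60.4 in Col-0 with t-zeatin and 77.7, 95.2 and 79.3 without. Here replicate 3 was the highest of the untreated ARR22-ox arrays, unlike for the anthocyanin genes, and the difference was -2.55 ± 0.28. AT2G20870 (-2.70 ± 0.32) showed the same pattern. THI2.1, a thionin of plant defence, differed by -2.30 ± 0.50. AT1G61930 (-4.02 ± 0.87) and AT5G22430 (-3.56 ± 0.83) were larger in size but dim, and gave -1.58 and -1.60 with the offset. Without replicate 3 the Col-0 responses of HIS1-3, -0.54 (adjusted p = 0.000371), THI2.1, 0.56 (adjusted p = 0.00448), and AT1G61930, 1.72 (adjusted p = 0.0324), were called, and AT1G61930 was a reversed rise.

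Gained rises included PUB22, with 158, 169 and 170.5 in ARR22-ox with t-zeatin and 29.7, 30.5 and 24.4 without, against 30.9, 27.9 and 29.6 in Col-0 with t-zeatin and 33.3, 33.1 and 28.1 without. The treated ARR22-ox arrays stood alone above 3 groups that overlapped. Its response was 2.56 ± 0.13 in ARR22-ox and -0.10 ± 0.13 in Col-0. SUFE2, which activates sulfur transfer for iron-sulfur clusters in plastids, rose by 2.29 ± 0.12 in ARR22-ox, against 0.19 ± 0.12 in Col-0. Prx37, a class III peroxidase, rose by 1.78 ± 0.13 in ARR22-ox, against -0.32 ± 0.13 in Col-0. AT3G10040 (HRA1, an attenuator of the hypoxia response) differed by 2.32 ± 0.42. The greatest gained rises without a name were AT2G43140 (7.17 ± 0.65), AT5G54720 (6.32 ± 1.19) and AT5G04310 (4.69 ± 0.40). They rest on untreated ARR22-ox signals of 1.58, 0.74 and 0.433, 3.82, 7.26 and 0.288 and 2.88, 2.42 and 3.71, near the lowest of the array, and an offset of 16 gave 2.79, 2.80 and 2.48. With ARR22-ox no treatment replicate 3 left out, the Col-0 responses of SUFE2, 0.19 (adjusted p = 0.0381), Prx37, -0.32 (adjusted p = 0.00154), and AT5G54720, -1.81 (adjusted p = 4.71e-05), were called, and AT5G54720 was a reversed fall.

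Part of the plastid genome's transcripts were higher after t-zeatin in ARR22-ox. Of all 13350 genes with 1 probe set each, 1762 rose and 2028 fell in ARR22-ox, and 1748 rose and 1506 fell in Col-0. Of 69 measured plastid genes 33 rose and 1 fell in ARR22-ox, while 0 rose and 1 fell in Col-0. The difference was higher for 18 and lower for 0, beside 11.0% and 14.4% of the 13350 genes with 1 probe set each, with a median of 0.41. psaA, a core protein of photosystem I, had 2390.0, 2144 and 2492 in ARR22-ox with t-zeatin and 228, 240.4 and 46.6 without, against 626, 837 and 976 in Col-0 with t-zeatin and 908, 677 and 1056 without. The Col-0 groups overlapped, and ARR22-ox no treatment replicate 3 was the lowest of the 12. The difference of psaA was 4.21 ± 0.67 (adjusted p = 0.00041), and 3.43 without that array. rpl16, a ribosomal protein, differed by 3.52 ± 0.52, and by 2.93 without the array. psbC, of photosystem II, had 1661, 1751 and 1848 in ARR22-ox with t-zeatin and 229.6, 259 and 178 without, against 348, 332 and 518 in Col-0 with t-zeatin and 429, 355 and 582 without. Here replicate 3 was close to its group, and the difference was 3.19 ± 0.28. Without that array the plastid differences were higher for 23 and lower for 8, with a median of 0.24, so the absence of lower calls rested on it. Its raised 3'/5' control ratios, given above, moved with these levels, and their part in the result was not tested.

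**Figure D4:**
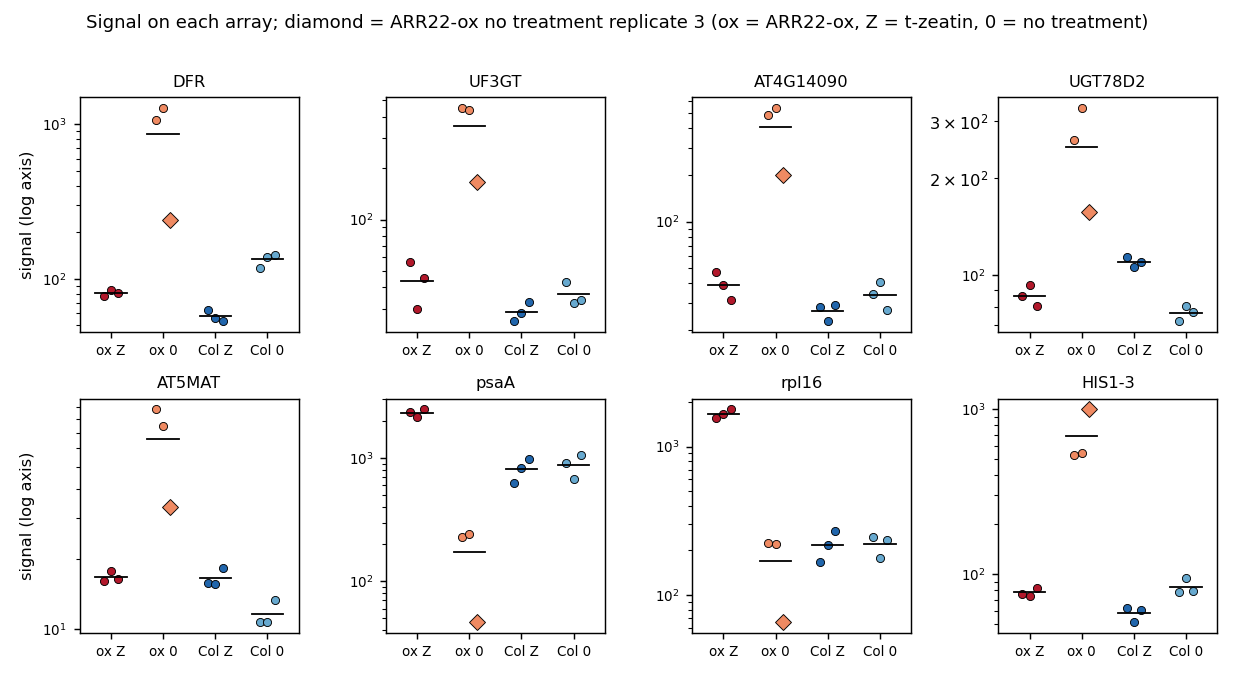
Signal on each of the 12 arrays (log axis) for 8 genes with responses gained in ARR22-ox, in the same left to right order of groups, with lines at the means and a diamond for ARR22-ox no treatment replicate 3. The 5 flavonoid and anthocyanin genes and HIS1-3 were highest in untreated ARR22-ox, and psaA and rpl16 were highest in treated ARR22-ox. The diamond lies below its group for all but HIS1-3.

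Smaller hormone and stress lists had few measured members. Their counts stand beside 13.1% of all probe sets with a higher difference and 15.2% with a lower one. GH3.3, which conjugates auxin to amino acids, had 225, 232 and 150.5 in ARR22-ox with t-zeatin and 46, 33.9 and 26.9 without, against 35.3, 40.7 and 38.4 in Col-0 with t-zeatin and 77.1, 54.5 and 59.7 without. It rose in ARR22-ox and fell in Col-0 by less than 2-fold, and the difference was 3.24 ± 0.30 (adjusted p = 5.49e-06). With WES1 (1.10), 2 of 4 measured auxin genes were higher and 0 lower. GH3.1 (0.93) was not called, and IAA29 (1.25, adjusted p = 0.0629), an auxin response repressor, was called without ARR22-ox no treatment replicate 3 (adjusted p = 0.0086). PDF1.2, a jasmonate-induced defensin, had 1704, 1768 and 1729 in ARR22-ox with t-zeatin and 1083, 994 and 427 without, against 809.7, 776 and 791 in Col-0 with t-zeatin and 1715, 1660.0 and 1853 without. It was a reversed fall with a difference of 2.30 ± 0.36, and the treated ARR22-ox arrays overlapped the untreated Col-0 ones. With JRG21 and AT2G38240, 1 of 3 measured jasmonate genes was higher and 0 lower, but 3 were higher with the offset, and 2 without ARR22-ox no treatment replicate 3 or with the 40th percentile filter. SAG101, a partner of the immune regulator EDS1, reversed by 1.86 ± 0.27 and was the 1 measured of 8 salicylate-linked defence genes. With the offset SAG101 was in no class. COR47, a dehydrin, differed by 0.81 ± 0.12, COR15A, a cold-induced chloroplast protein, by 1.11 ± 0.77 without a call, and GI, a clock protein, by 0.28 ± 0.67 without a call. With HIS1-3, 1 of 3 measured genes of abscisic acid, cold and drought was higher and 1 lower. GI was the 1 measured of 11 clock genes. For GI the sign depended on ARR22-ox no treatment replicate 3, since the difference was -0.53 without it (adjusted p = 0.0153).

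Gene families, grouped by their names after values had been seen, are given as counts with some medians and chosen members, and no family was tested. The counts stand beside 11.0% higher and 14.4% lower over all 13350 genes with 1 probe set each. Genes that also stand on a list above are counted again in their family, so family and list counts are not independent. Among the lower ones these include NRPA1, NRPA2, EXPA4 and EXPB1. Of 12 nuclear RNA polymerase subunits 8 were lower and 0 higher, with a median of -0.69. NRPB7 (-1.41 ± 0.15) and NRPB12 (-1.27 ± 0.19) were lost rises. Of 7 tubulins, the subunits of microtubules, 6 were lower and 1 higher, with a median of -0.89. The lower ones included TUB1, TUB6 (-1.15 ± 0.20), TUB7 (-1.10 ± 0.11) and TUA6 (-0.89 ± 0.11), and in Col-0 6 of the 7 rose. TUA1 (0.68 ± 0.20) was higher, a call lost without any of 6 single arrays. Of 14 expansins 5 were lower and 0 higher (median -0.42), among them EXPA15 (-1.49 ± 0.21). Of 15 IQ-domain genes 6 were lower and 0 higher, with IQD24 at -0.92 ± 0.17. Of 29 serine carboxypeptidase-like genes 6 were lower and 1 higher, and both PPR genes, PPR596 and PPR336, were lower.

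In other families more differences were higher than lower, or the calls were divided. Higher members already counted in the stress or wall list were PUB22, PUB23, PUB24, WRKY22, WRKY6, CML38, CML42, XTH18, XTH19 and XTH33. Of 9 U-box ligases 4 were higher and 0 lower, with a median of 1.34, which was 0.36 with the offset. Of 6 WRKY factors 3 were higher and 0 lower (median 1.21), with WRKY47 at 1.55 ± 0.17. Of 9 xyloglucan endotransglucosylases 4 were higher and 1 lower. Of 8 calmodulin-like genes 3 were higher and 0 lower, with CML41 at 1.39 ± 0.35. Of 9 prenylated RAB acceptors 3 were higher and 0 lower, and of 11 tau glutathione transferases 1 was higher and 1 lower. Of 8 autophagy genes 3 were higher and 1 lower, and ATG8E had 360.2, 332 and 356 in ARR22-ox with t-zeatin and 132, 183 and 251 without, against 223, 223 and 189.9 in Col-0 with t-zeatin and 476, 490.4 and 486 without. ATG8E was a reversed fall with a difference of 2.13 ± 0.24. Of 11 RALF-like peptides 3 were higher and 4 lower, and RALFL22 reversed by 1.64 ± 0.12. The 47 UDP-glycosyltransferases were divided, with 10 higher and 6 lower. UGT71B6, which glucosylates abscisic acid, differed by 5.11 ± 0.70, but at signals of 23.6, 27.7 and 20.4 in ARR22-ox with t-zeatin and 5.26, 8.25 and 10.1 without, against 1.29, 1.44 and 0.842 in Col-0 with t-zeatin and 21.6, 5.48 and 18.03 without, and by 1.55 with the offset.

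**Figure D5:**
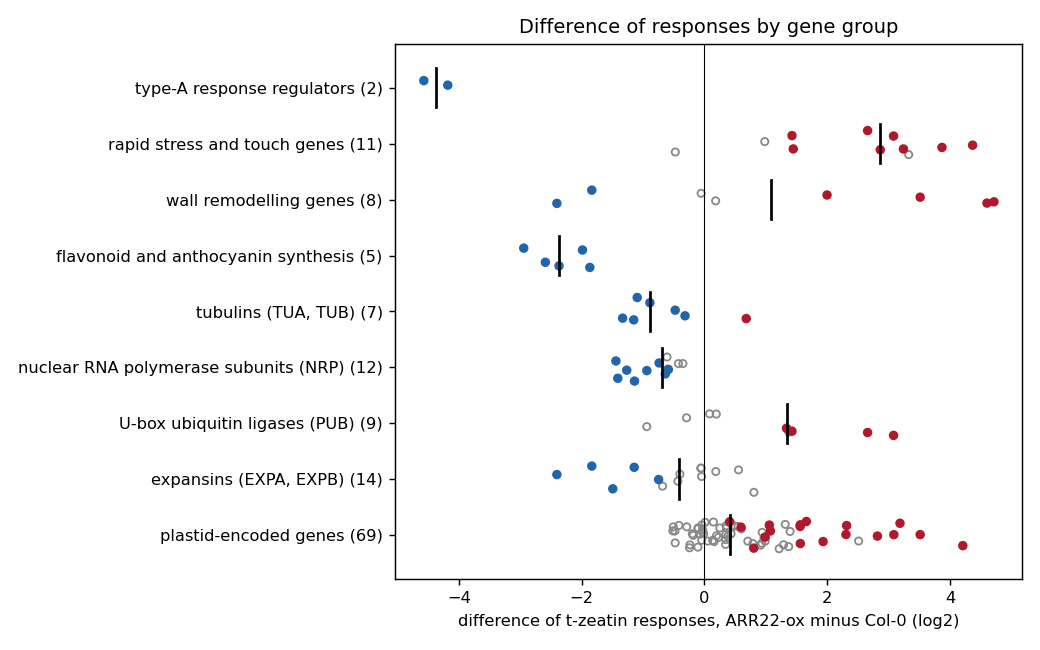
Difference of t-zeatin responses, ARR22-ox minus Col-0 (horizontal axis, log2), for the measured members of 9 gene groups, with the number of members in brackets. Filled red points were called higher, filled blue points called lower, open points not called, and the black bar is the median. Members of the stress group lie mostly to the right (8 higher, 0 lower), and type-A regulators (2), flavonoid and anthocyanin genes (5) and 6 of 7 tubulins lie to the left.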

How the data were processed

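Transcript levels of 12 samples in 4 groups of 3 were read from 1 table of the whole series. Its values are array intensity on a linear scale, deposited by the authors for 22810 probe sets; MAS5, with no version, is named in the submitters' processing notes. The mean signal after trimming 2% at each end was 100.0 on every array, as the deposited values show, and no 2 arrays were identical. Precision is limited by having 3 arrays in a group.

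Signals were converted to log2 with no offset or filter, as the rule asks. Small signals give large and uncertain log ratios. The 4 group means were fitted with limma 3.58.1 (eBayes with trend) in R 4.3.3 over 22746 probe sets, two-sided, with Benjamini-Hochberg adjustment. The method was tried on simulated arrays with independent noise, where shifts were planted in the ARR22-ox t-zeatin group at brighter probe sets only. No simulated array stood apart, so this does not show how the fit handles such an array or changes at dim signals. No sample was dropped or imputed.

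Genes are named from the given table, in which 13513 of the probe sets had a single gene, 503 had more than 1 and 8730 were unnamed. The brightest of several probe sets stood for a gene, which left 13350 genes. The TAIR10.1 annotation held the gene of 13436 of those 13513. The named genes are those with the greatest difference per class (5 reversed and lost, 4 gained, 3 reduced and enlarged, 4 kept by the smaller response), with groups apart and a highest mean signal of at least 39.5, plus members of 16 lists, of whose 206 genes 51 were measured. Genes with a published name and 16 families were added after values were seen. The members and lists were chosen with earlier results of these data known. Alternatives were an offset of 16, filters at the 40th and 60th percentile, quantile or median scaling, array weights, no variance trend, a threshold of 0.01, Col-0 thresholds of 1.5-fold or any size, and each array left out. Sequences were not used here.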

Additional observations from a re-analysis of the deposited data

Results flagged for a closer look

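The named genes below were listed because the limma fit called the difference between the ARR22-ox and Col-0 responses. That call was shared by 6427 probe sets (28.3%), so it does not set these genes apart. Values are log2 differences, ARR22-ox minus Col-0, with 3 arrays per group and no offset. Classes are those with all arrays. Some classes and sizes change without ARR22-ox no treatment replicate 3 or with the offset, as given above. Reversed Col-0 rises were AT3G57010 -4.91, AT5G12110 -4.23, RR16 -4.18, AT1G47400 -3.72 and AT3G52170 -3.60. Reversed Col-0 falls were AT5G62280 4.90, XTH18 4.72, AT1G15010 4.64, EXO 4.60, AT2G39980 4.54, STZ 4.37, CML38 3.87, XTH33 3.51, WRKY22 3.24, CML42 2.86, PDF1.2 2.30 and SAG101 1.86. Lost rises were AT3G28270 -4.75, ARR15 -4.57, AT4G11190 -3.65, AT5G47980 -3.17, AT4G27590 -2.71 and UGT76C2 -2.34. Lost falls were AT5G10695 3.02, AT2G41640 2.74, AT3G19680 2.59, AT1G72060 2.59, AT1G11210 2.16 and WES1 1.10. Gained rises were AT2G43140 7.17, AT5G54720 6.32, AT5G04310 4.69, psaA 4.21, PUB22 2.66, WRKY6 1.45 and XTH19 2.00. Gained falls were AT1G61930 -4.02, AT5G22430 -3.56, AT4G14090 -2.95, AT2G20870 -2.70, UF3GT -2.59, HIS1-3 -2.55, AT5MAT -2.37, EXPA4 -1.84, EXPB1 -2.40, DFR -1.87 and UGT78D2 -1.99. Reduced rises were AT4G04940 -2.16, AT3G59670 -2.02, AT3G10530 -1.88, NRPA1 -1.44 and NRPA2 -0.59. Reduced falls were AT1G54740 1.59, AT5G25240 1.47 and AT3G26510 1.10. Enlarged rises were AT5G48430 2.79, IAGLU 1.19 and MSRB9 1.13. Enlarged falls were AT5G48490 -1.73, AT5G62210 -1.57 and AT1G22160 -1.56. Genes in none of these classes were PUB23 3.08, PUB24 1.43, GH3.3 3.24 and COR47 0.81.

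The control probe sets were no part of the comparisons. On ARR22-ox no treatment replicate 3 the 3'/5' ratio was 1.824 for GAPDH and 8.822 for actin, each above all 11 other arrays. That array's weight was 0.11 in a fit with array weights, against 0.90 to 1.47 on the others.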

How the results depend on the processing

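The larger reversed share among Col-0 falls (27.8% to 52.6%, against 7.42% to 18.4% among rises) and the larger lost share among rises (35.4% to 57.1%, against 23.8% to 33.4%) held under 22 of 22 settings. Counts that moved by over 1.5 times from those in the report were as follows. A Col-0 threshold of 1.5-fold gave 285 reversed rises, 559 reversed falls, 872 lost rises, 485 lost falls, 53 reduced falls, 49 enlarged rises, 48 enlarged falls, 344 kept rises, 357 kept falls, 351 not resolved rises, 277 not resolved falls, 946 gained rises and 911 gained falls. Any size gave 597 reversed rises, 788 reversed falls, 1147 lost rises, 673 lost falls, 54 reduced falls, 118 enlarged rises, 150 enlarged falls, 597 kept rises, 666 kept falls, 624 not resolved rises, 501 not resolved falls, 1176 gained rises and 1243 gained falls, and turned the median Col-0 response over ARR22-ox rises to 0.0276 and the median ARR22-ox response over Col-0 falls to -0.0464. A threshold of 0.01 gave 2284 lower differences, 59 reversed rises, 56 reduced rises, 7 reduced falls, 10 enlarged rises and 3 enlarged falls. Array weights gave 166 reversed rises and 56 reduced falls. The 40th percentile filter gave 14 not resolved rises, 15 not resolved falls and 305 gained falls, and the 60th gave 219 lost rises, 105 lost falls, 6 enlarged falls, 43 kept rises, 47 kept falls, 7 not resolved rises, 8 not resolved falls, 239 gained rises and 168 gained falls. The offset gave 43 reversed rises, 286 lost rises, 97 lost falls, 9 enlarged rises, 5 enlarged falls, 39 kept rises, 40 kept falls, 1 not resolved rise, 7 not resolved falls, 331 gained rises and 217 gained falls. Quantile scaling, equal medians and no variance trend moved none of these counts by over 1.5 times.

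Leaving out each array in turn gave 78 to 179 reversed rises, 246 to 325 reversed falls, 425 to 484 lost rises, 195 to 230 lost falls, 85 to 176 reduced rises, 18 to 60 reduced falls, 11 to 19 enlarged rises and 6 to 17 enlarged falls. Those moved by over 1.5 times were, without ARR22-ox t-zeatin replicate 1, 85 reduced rises and 18 reduced falls, without replicate 2 or 3 of that group 89 and 90 reduced rises, without Col-0 no treatment replicate 1, 11 enlarged rises and 6 enlarged falls, without Col-0 t-zeatin replicate 3, 6 enlarged falls, and without ARR22-ox no treatment replicate 3, 179 reversed rises, 60 reduced falls and 17 enlarged falls. Of 3217 values of 166 named genes, 3070 kept sign and call, 118 lost a call, 17 gained one and 12 changed sign. Of 158 genes in a class, 119 kept it without ARR22-ox no treatment replicate 3 (27 of 27 reversed, but 17 of 29 lost, 12 of which were then reversed, and 32 of 54 gained, with the Col-0 response called for 19). With the offset 115 stayed in their class, among them 20 of 27 reversed, 20 of 29 lost, 45 of 54 gained and 11 of 23 kept. Sign changes were confined to differences that were not called at first. With the offset RR22 was -0.113. With array weights EXPA8 was 0.278, GI -0.446 and RCA 0.038. Leaving out single arrays gave UGT73C1 -0.868 to 0.118, XTH20 -0.068 to 0.422, EXPA8 -0.457 to 0.313, GI -0.528 to 0.703 and RCA -0.083 to 0.052. Filters and thresholds act by testing fewer probe sets or asking for larger changes, and for the other settings the cause was not tested. No paired analysis was possible because the labels give no replicate numbers shared by the groups. Signals near the lowest on the array limit the size of log ratios there.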
